A study of Mus musculus with 6 samples.

Results

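The genes described here encode the proteins of the cytosolic ribosome. They were taken by symbol from the platform's probe annotation, as names that start with Rpl or Rps and a digit together with Rplp0, Rplp1, Rplp2 and Rpsa, without pseudogene symbols and without the Rps6k kinases. Probe sets with exactly 1 symbol were used, and where a gene had several the set with the highest mean over the 6 arrays stood for it. This gave 63 genes among 19938 genes with such a probe set, 38 with a large subunit symbol and 25 with a small subunit symbol. The study measured RNA of mouse bone marrow on 6 Affymetrix whole-transcript arrays, 3 labelled wild type and 3 labelled diabetic. The wild type label gives the genotype BKS.Cg-Dock7m +/+ Leprdb/JNju and the diabetic label BKS.Cg-Dock7m -/- Leprdb/JNju, so that both name the db allele of Lepr, the leptin receptor gene, and which alleles the wild type animals carried was not settled from the labels. Diabetic mice of this line are a standard model of obesity and type 2 diabetes. All animals were males of 10 weeks, and the marrow was washed out of the shafts of femurs and tibiae with saline, untreated, and no sorting is stated. The labels do not say if each array came from a single mouse, so p-values here cover only the spread among these arrays, and that spread may be technical.

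The ribosome has a large subunit, which forms the peptide bond, and a small subunit, which reads the mRNA. Each is built from ribosomal RNA and one copy of most of its proteins, and most of the mRNAs of these proteins start with a run of pyrimidines, the terminal oligopyrimidine or TOP motif, through which mTOR signalling sets their translation. Marrow makes blood cells at a high rate, and loss of one copy of certain ribosomal protein genes causes Diamond-Blackfan anaemia in people, a failure of red cell production.

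The rule left some ribosomal protein genes unread and took in some others. Of 89 protein-coding genes that fit it in the RefSeq gene table, 27 had no probe set with a single symbol, among them Rpl3, Rpl11, Rpl39 and Rps27, and 20 of these 27 were listed on sets with several symbols. All 63 genes used matched that table, 1 of them, Rps4l, as a transcribed pseudogene. Of the 63, 60 passed the level filter described below, and 6 of these fit the rule by symbol without being standard ribosomal protein genes. These were Rps19bp1 (a binding partner of Rps19), Rps23rg1 (a retrogene), Rpl7l1, Rps27l, Rpl32l and Rps4l. Rplp0 and Rps3 are in the set by their symbols, which is no check of its name. Both were far above the level filter, and Rpl3 was not measured on its own.

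The promoters of some of these genes are shown because the TOP motif lies at the start of the transcript. The sequences below are RefSeq windows of GRCm38.p6 on the strand of the gene, and each holds the 60 bases before the annotated start and the first 20 bases from it, 80 in all. They belong to the 3 genes with the highest changes among the genes tested (Rps3a1, Rps28 and Rps9) and to 3 of those with the lowest (Rps27l, Rplp2 and Rpl14). Capitals mark a C followed by at least 4 pyrimidines within 5 bases of the start, or the letters CCGGAAG, the core recognised by ETS factors.
Rps3a1, chr3:86142649-86142728, minus strand: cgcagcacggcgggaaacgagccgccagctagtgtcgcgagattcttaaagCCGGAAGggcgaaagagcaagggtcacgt
Rps28, chr17:33824543-33824622, minus strand: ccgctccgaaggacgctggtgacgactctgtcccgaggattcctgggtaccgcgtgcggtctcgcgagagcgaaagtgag
Rps9, chr7:3703981-3704060, plus strand: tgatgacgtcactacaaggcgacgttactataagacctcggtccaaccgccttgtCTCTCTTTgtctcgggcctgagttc
Rps27l, chr9:66946026-66946105, plus strand: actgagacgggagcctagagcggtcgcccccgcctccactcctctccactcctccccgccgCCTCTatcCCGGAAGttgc
Rplp2, chr7:141447591-141447670, plus strand: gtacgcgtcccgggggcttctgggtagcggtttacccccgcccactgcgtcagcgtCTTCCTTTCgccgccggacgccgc
Rpl14, chr9:120571457-120571536, plus strand: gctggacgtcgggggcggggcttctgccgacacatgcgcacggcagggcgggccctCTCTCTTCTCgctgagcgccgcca

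Of the 60 genes tested, 48 had a promoter in the table. A tract of this kind lay within 5 bases of the annotated start in 19 of the 48 (39.6%), against 21.2% of all 27025 genes with a promoter in the table. Searched on the gene's strand from 5 bases before to 45 bases after the start, it was in 43 of 48 (89.6%), against 58.7% of all. CCGGAAG, on either strand of the 300 bases from 250 before the start, was in 18 of 48 (37.5%), against 9.93% of all. It was in 10 of 21 small subunit genes with a promoter (47.6%) and in 8 of 27 large subunit genes with one (29.6%). AAGATGGCG, the letters of a YY1 site, was in 1 of 48 (2.08%), against 1.64% of all. Among the 17492 protein-coding genes with a promoter, 21.5% had the tract near the start and 59.2% in the longer search. CCGGAAG was in 12.9% of these genes and AAGATGGCG in 2.14%. CCGGAAG, or CTTCCGG on the other strand, can share its pyrimidine letters with the tract, and a match is a description of these letters only.

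The 6 arrays had a median log2 signal between 7.67 and 7.73 over all probe sets. Values are log2 signals made by RMA (robust multi-array averaging). It gives every array the same distribution of probe signals before these are combined into probe sets. This largely removes a shift that most genes have in common, while small differences between arrays can remain. Genes with a mean log2 signal under the 40th percentile of the single-symbol sets, 7.52, were not tested. This left 11940 genes and 60 of the 63 ribosomal protein genes, 35 of the large and 25 of the small subunit. The 3 below the filter were paralogues known for use in muscle or testis, Rpl3l, Rpl10l and Rpl39l. Just above it lay Rps23rg1, with log2 signals of 7.91, 7.70 and 7.76 in wild type and 7.99, 7.61 and 8.09 in diabetic marrow. In marrow, which holds many cell types, fewer cells of a type and less RNA per cell cannot be told apart.

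The first question was whether any ribosomal protein transcript differed between diabetic and wild type marrow. By limma with Benjamini-Hochberg adjustment over all genes tested, 0 of the 60 passed the threshold of 0.05, where 49 of 11940 genes passed, 0.41% (0.0838% higher in diabetic marrow, 0.327% lower). Without adjustment, 3 had a p under 0.05, which is 5% of the 60 against 7.16% of all genes tested. All 3 (Rps3a1, Rps28 and Rpl36a) were higher in diabetic marrow, where 3.99% of all genes tested were higher and 3.17% lower at this p. Log2 changes, diabetic minus wild type, ranged from -0.18 for Rps27l to 0.23 for Rps3a1, and their median was 0.031, against 0.0047 over all genes tested. The lowest adjusted p among the 60 was 0.577 in limma. With array weights in the limma fit, 4 of the 60 passed (Rps3a1, Rps28, Rps21 and Rpl5), where 1131 genes passed in all, and under the other alternatives run the count was 0.

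The limma intervals limit the size of each gene's change given the spread among these arrays. They are for single genes, and the spread may be technical, so they do not bound a difference between diabetic and wild type mice. Nor do they cover a shift that most genes have in common, which RMA largely removes. The 95% interval of the log2 change lay within -0.5 and 0.5 for 60 of 60 genes, against 93.8% of all genes tested, and within -0.25 and 0.25 for 41 of 60 (68.3%), against 53%. Rps27l had the lowest bound, at -0.40, and Rps3a1 the highest, at 0.42. In the median gene the size of the change, without its sign, was 0.057, against 0.058 over all genes tested.

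**Figure D1:**
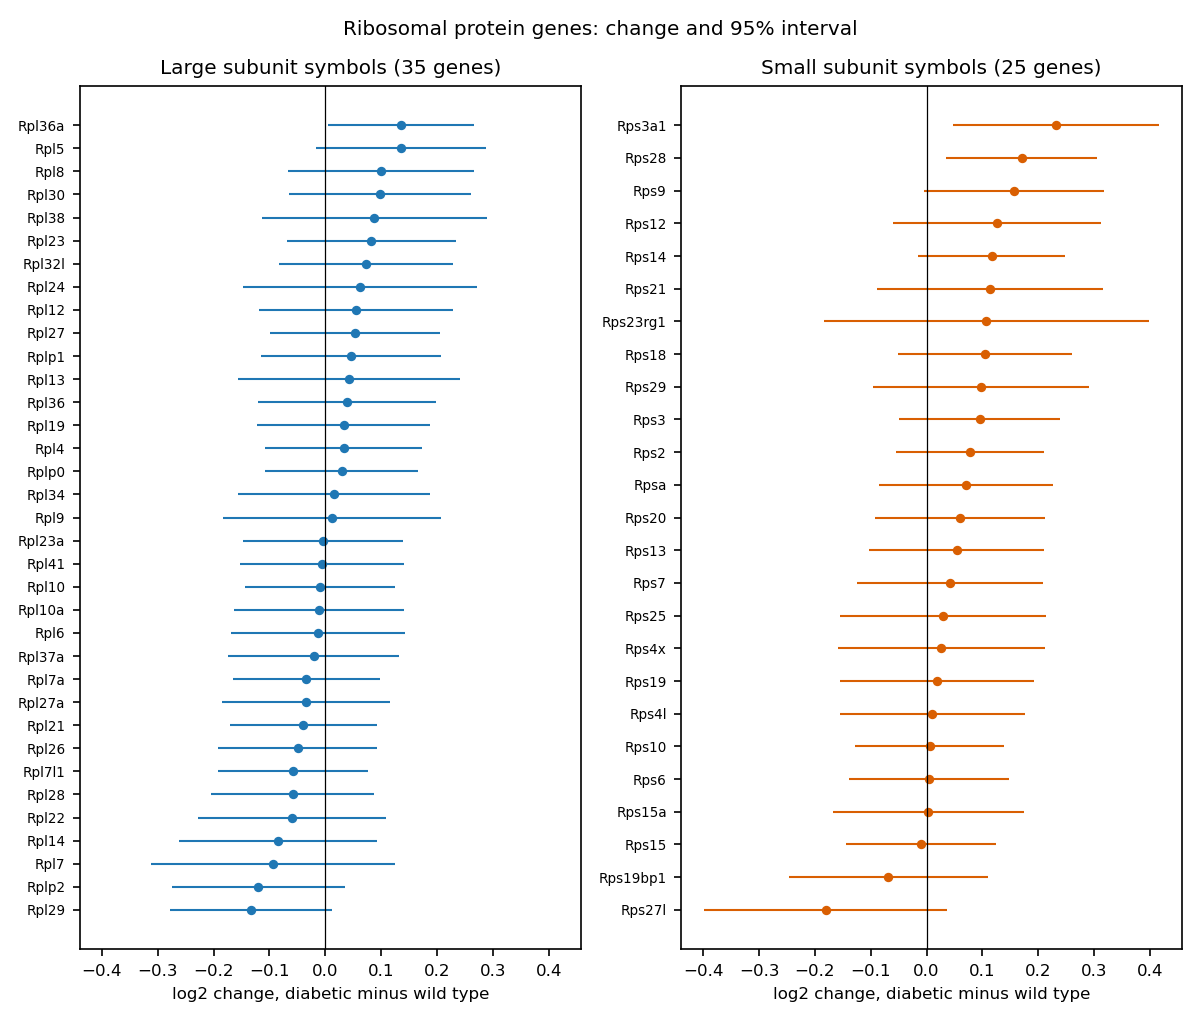
Log2 change, diabetic minus wild type (horizontal axis), of the 35 large subunit genes (left) and the 25 small subunit genes (right), sorted by change. Points are limma estimates and lines their 95% intervals. The intervals of Rpl36a, Rps3a1 and Rps28 lie to the right of 0, and no interval lies wholly to the left of it.

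Among small subunit proteins, Rps3a1, a protein near the site where mRNA leaves the ribosome, had log2 signals of 9.17, 9.14 and 9.30 in wild type and 9.51, 9.50 and 9.30 in diabetic marrow. Diabetic arrays 1 and 2 were above all wild type arrays, and diabetic array 3 was level with wild type array 3, so the groups overlapped. The change was 0.23 ± 0.08 (SE, n = 3 per group), 1.17-fold, with an unadjusted p of 0.0203 in limma (adjusted p = 0.577). Rps28, a small subunit protein whose gene is one of the Diamond-Blackfan genes, had log2 signals of 11.61, 11.66 and 11.64 in wild type and 11.86, 11.81 and 11.75 in diabetic marrow. Every diabetic array was above every wild type array. Its change was 0.17 ± 0.06 (SE, n = 3 per group), 1.13-fold, with an unadjusted p of 0.0197 in limma (adjusted p = 0.577).

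Rps9, which helps to form the path by which mRNA enters, had log2 signals of 11.90, 11.97 and 11.89 in wild type and 12.14, 12.13 and 11.96 in diabetic marrow. Diabetic array 3 lay just under wild type array 2. Rps12 had log2 signals of 11.60, 11.70 and 11.71 in wild type and 11.87, 11.87 and 11.64 in diabetic marrow. Here too diabetic array 3 lay among the wild type arrays. The log2 changes were 0.16 ± 0.07 for Rps9 and 0.13 ± 0.08 for Rps12 (SE, n = 3 per group), with unadjusted p of 0.0549 and 0.155 in limma.

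Rps3, a protein of the mRNA entry site that is also known for a role in DNA repair, had log2 signals of 11.65, 11.70 and 11.66 in wild type and 11.81, 11.81 and 11.68 in diabetic marrow, a change of 0.10 ± 0.06 (SE, n = 3 per group). The groups overlapped through diabetic array 3. Rps14, whose human counterpart lies in the segment lost in the 5q- syndrome, had log2 signals of 11.92, 11.94 and 11.92 in wild type and 12.04, 12.09 and 11.99 in diabetic marrow, with no overlap. Its change was 0.12 ± 0.06 (SE, n = 3 per group), with an unadjusted p of 0.0751 in limma. Rps2 had log2 signals of 12.95, 12.96 and 13.05 in wild type and 13.07, 13.05 and 13.07 in diabetic marrow, and the groups were separate by less than 0.01.

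Rps19, the gene first linked to Diamond-Blackfan anaemia, had log2 signals of 11.08, 11.03 and 11.07 in wild type and 11.21, 11.08 and 10.95 in diabetic marrow. The diabetic arrays reached above and below the wild type arrays, and the change was 0.02 ± 0.08 (SE, n = 3 per group). At the other end of the small subunit, Rps27l, a paralogue of Rps27 that p53 induces, had log2 signals of 10.71, 10.75 and 11.04 in wild type and 10.65, 10.71 and 10.59 in diabetic marrow. Wild type array 3 stood above the other 5 arrays. Its change was -0.18 ± 0.09 (SE, n = 3 per group), with an unadjusted p of 0.0915 in limma, and it was -0.078 without wild type replicate 3. Rps19bp1 had a change of -0.07 ± 0.08 (SE, n = 3 per group), which was 0.0018 without wild type replicate 3.

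Among large subunit proteins, Rpl36a, which sits near the exit site for spent transfer RNA, had log2 signals of 12.06, 12.15 and 12.12 in wild type and 12.27, 12.25 and 12.23 in diabetic marrow. The groups did not overlap, and its spread within groups, an SD of 0.035, was the smallest of the 60 genes. The change was 0.14 ± 0.06 (SE, n = 3 per group), 1.10-fold, with an unadjusted p of 0.0429 in limma (adjusted p = 0.679). Rpl5, which carries the 5S ribosomal RNA and can bind Mdm2, the inhibitor of p53, had log2 signals of 12.38, 12.43 and 12.49 in wild type and 12.61, 12.62 and 12.48 in diabetic marrow. Diabetic array 3 again lay among the wild type arrays. Its change was 0.14 ± 0.07 (SE, n = 3 per group), with an unadjusted p of 0.0739 in limma.

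Rpl29 was the 1 gene of the 60 with every diabetic array below every wild type array. Its log2 signals were 12.08, 12.03 and 12.11 in wild type and 11.98, 11.98 and 11.86 in diabetic marrow. Mice can live without this large subunit protein, with reduced growth. The change was -0.13 ± 0.06 (SE, n = 3 per group), with an unadjusted p of 0.0667 in limma (adjusted p = 0.740). In all, groups were separate for 4 genes upward (Rps28, Rpl36a, Rps14 and Rps2), 6.67% against 6.99% of all genes tested, and for 1 downward, 1.67% against 5.38%.

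The stalk of the large subunit, which calls in elongation factors, is built on Rplp0 with Rplp1 and Rplp2. Rplp0, often used as a reference transcript, had log2 signals of 13.61, 13.62 and 13.68 in wild type and 13.64, 13.63 and 13.73 in diabetic marrow, and the groups overlapped. Its change was 0.03 ± 0.06 (SE, n = 3 per group), and it was -0.00039 without diabetic replicate 3. Rplp2 had log2 signals of 8.48, 8.43 and 8.34 in wild type and 8.34, 8.33 and 8.22 in diabetic marrow. Wild type array 3 was level with diabetic array 1, and the change was -0.12 ± 0.07 (SE, n = 3 per group). Rplp1 had a change of 0.05 ± 0.07 (SE, n = 3 per group), so the 3 stalk genes did not share a sign.

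Rpl7 and Rpl14, both large subunit proteins, had lower means in diabetic marrow. Rpl7 had log2 signals of 11.48, 11.55 and 11.70 in wild type and 11.57, 11.57 and 11.31 in diabetic marrow. Rpl14 had log2 signals of 9.41, 9.37 and 9.43 in wild type and 9.33, 9.44 and 9.18 in diabetic marrow. In both genes diabetic array 3 was the lowest of the 6. The changes were -0.09 ± 0.09 and -0.08 ± 0.08 (SE, n = 3 per group), and without diabetic replicate 3 they were -0.0053 and -0.016. For Rpl7 wild type array 3 was the highest of the 6, and without it the change was -0.033.

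**Figure D2:**
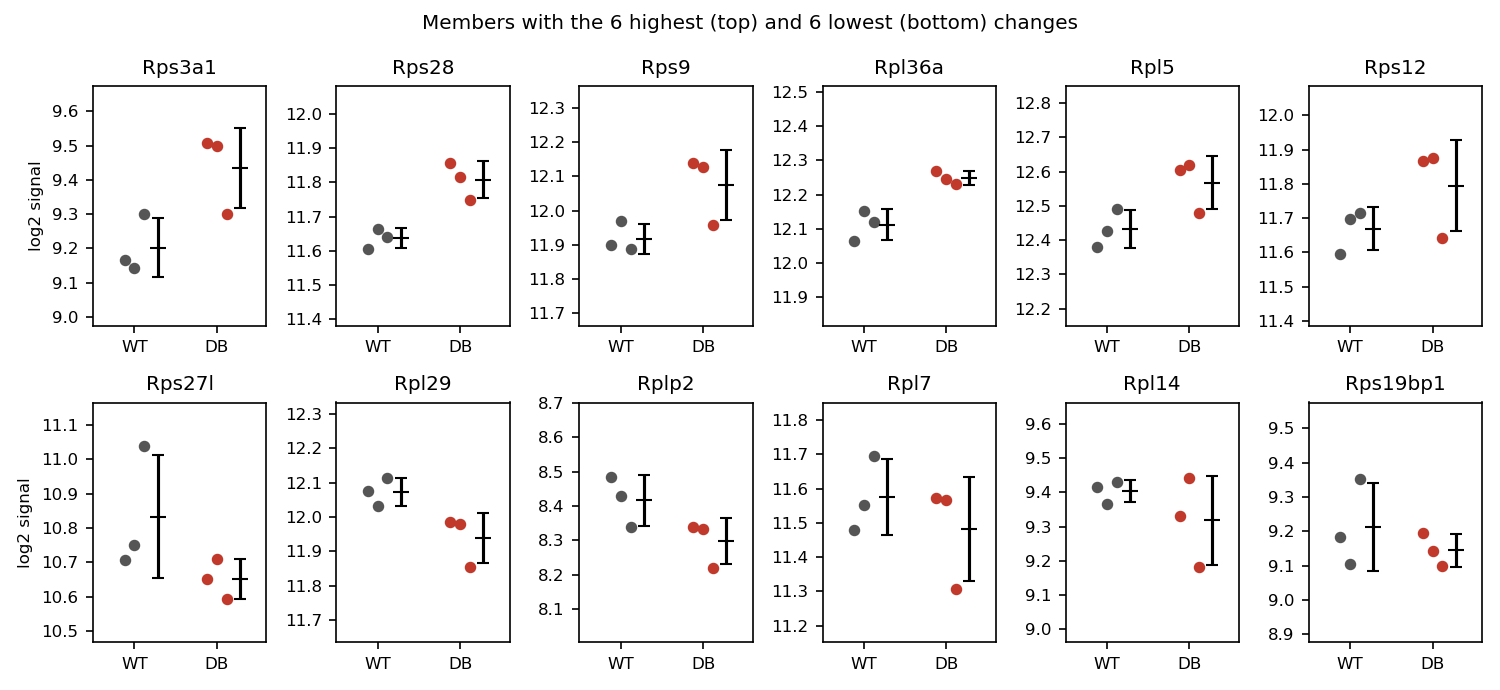
Log2 signal (vertical axis, own range in each panel, not starting at 0) of the 6 ribosomal protein genes with the highest changes (top) and the 6 with the lowest (bottom) in wild type (WT) and diabetic (DB) arrays. Points are arrays in replicate order and bars the mean ± SD (n = 3). In Rps3a1, Rps9, Rpl5 and Rps12 the third diabetic point lies among the wild type points, and in Rps28 and Rpl36a it lies above them.

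Paralogues are second copies that can take the place of a ribosomal protein in some tissues. Those measured gave no change past the threshold, and 5 pairs lacked one partner here. Rpl7l1, a nucleolar relative of Rpl7, had a change of -0.06 ± 0.06 (SE, n = 3 per group), beside the -0.09 of Rpl7. Rpl22, a protein needed by developing T cells, had a change of -0.06 ± 0.07 and Rpl10 one of -0.01 ± 0.06 (SE, n = 3 per group). Rpl3l, Rpl10l and Rpl39l had mean log2 signals of 6.59, 6.94 and 5.48 in wild type and 6.58, 6.94 and 5.52 in diabetic marrow, all under the level filter.

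The subunits differed in their counts. Of 25 small subunit genes, 22 had a change above 0 (88%), with a median of 0.060, and of 35 large subunit genes 18 did (51.4%), with a median of 0.012. Among all genes tested, 52.4% had a change above 0. Of the genes that are not standard, Rps27l and Rps19bp1 were below 0, and Rps23rg1 and Rps4l above 0, in the small subunit count. Without all 6 such genes, a choice made after seeing the data, the median was 0.071 for the small subunit and 0.012 for the large. The difference between subunits was not tested, and genes of one array share that array's error, so these counts are not independent. Averaged over genes, small subunit log2 signals came to 11.34 ± 0.02 for the wild type arrays and 11.40 ± 0.06 for the diabetic arrays, and large subunit signals to 11.65 ± 0.02 and 11.66 ± 0.05 (SD, n = 3 arrays each). By array the small subunit mean came to 11.32, 11.33 and 11.37 in wild type and 11.44, 11.41 and 11.33 in diabetic marrow, so the groups overlapped through diabetic array 3. Without diabetic replicate 1 or diabetic replicate 3 the small subunit median was 0.037 and 0.094, and the large subunit median was -0.0082 and 0.030. Without diabetic replicate 2 the small subunit median was 0.044 and the large subunit median 0.0028. The large subunit median was also below 0 without wild type replicate 1, at -0.011, and with probe sets averaged per gene, at -0.0032. The counts moved as well. With diabetic replicate 1, 2 or 3 left out, 16, 17 and 23 of the 25 small subunit genes were above 0. With wild type replicate 1, 2 or 3 left out, 21, 21 and 19 were. For the 35 large subunit genes these counts were 16, 18 and 22, and then 17, 19 and 19.

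Within the diabetic group most ribosomal protein genes deviated in the same direction on a given array. The third diabetic array had the lowest signal of the 3 diabetic arrays for 47 of the 60 genes (78.3%), against 36.3% of all genes tested. It lay above the gene's mean over the 6 arrays for 14 genes (23.3%), while diabetic arrays 1 and 2 did so for 48 (80%) and 43 (71.7%). In wild type arrays 1, 2 and 3 these numbers were 21 (35%), 26 (43.3%) and 27 (45%). Over all genes tested the shares were 57.6%, 45.9% and 48.9% in diabetic arrays 1, 2 and 3. They were 45.7%, 47.9% and 49.6% in wild type arrays 1, 2 and 3. The mean log2 signal over the 60 genes came to 11.50, 11.52 and 11.54 in wild type and 11.59, 11.57 and 11.49 in diabetic marrow, so the diabetic arrays spanned the whole wild type range. Without diabetic replicate 3 the median change of the 60 genes was 0.064 and 45 were above 0, and without diabetic replicate 1 it was 0.011 and 32 were above 0. Without diabetic replicate 2 the median was 0.020.

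**Figure D3:**
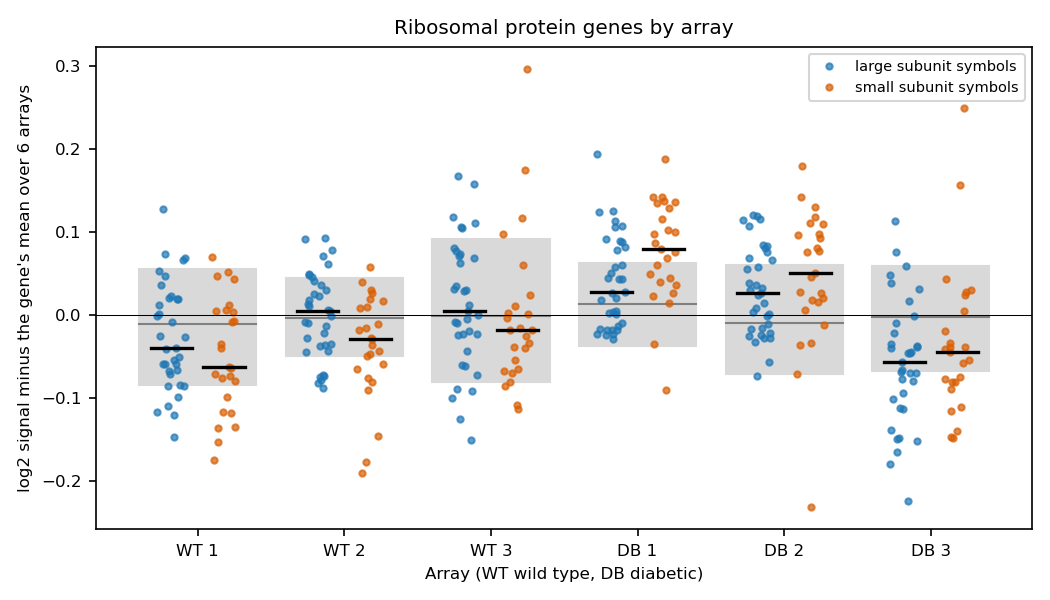
Log2 signal of each ribosomal protein gene minus that gene's mean over the 6 arrays (vertical axis), by array (horizontal axis). Points are genes, black lines the medians of each subunit, grey boxes the middle 50% of all genes tested and grey lines their medians. Most points of the first and second diabetic arrays lie above 0 and most of the third lie below it.

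The spread within groups was small. The median SD within groups was 0.072 over the 60 genes, against 0.092 over all genes tested and 0.094 over the 1650 genes at or above the lower quartile of the ribosomal protein genes' level. The genes with the largest SD were Rps23rg1, Rps27l, Rpl7 and Rpl24, at 0.195, 0.133, 0.133 and 0.126. Those with the smallest were Rpl36a, Rpl21, Rps14 and Rpl7a, at 0.035, 0.037, 0.038 and 0.038. Rpl24 had log2 signals of 10.80, 10.81 and 10.96 in wild type and 11.02, 11.01 and 10.74 in diabetic marrow, so that its spread came mostly from diabetic array 3. Rpl21 had log2 signals of 13.62, 13.61 and 13.63 in wild type and 13.58, 13.63 and 13.53 in diabetic marrow. Rpl7a had 12.12, 12.10 and 12.19 in wild type and 12.10, 12.12 and 12.09 in diabetic marrow. Without diabetic replicate 3 the median SD of the 60 genes was 0.052.

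Several probe sets read many of these genes, and they gave a check on the sign. Of the 39 genes with more than 1 set, 34 had changes of one sign in all their sets and 5 had both signs (Rpl23a, Rpl19, Rpl6, Rpl13 and Rps4l, with at most 0.084 between the sets of a gene, in Rps4l). Rps28 had 7 sets, with changes from 0.17 to 0.26, all above 0. Rps12 had 14 sets, the most of any gene, also all above 0. The median difference between the highest and the lowest change of a gene's sets was 0.031, and the widest was 0.12, in Rpl7a. Of these sets, 19 held the same values as another, and ribosomal protein genes have many processed pseudogenes, so sets of a gene are not independent and can read related copies.

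**Figure D4:**
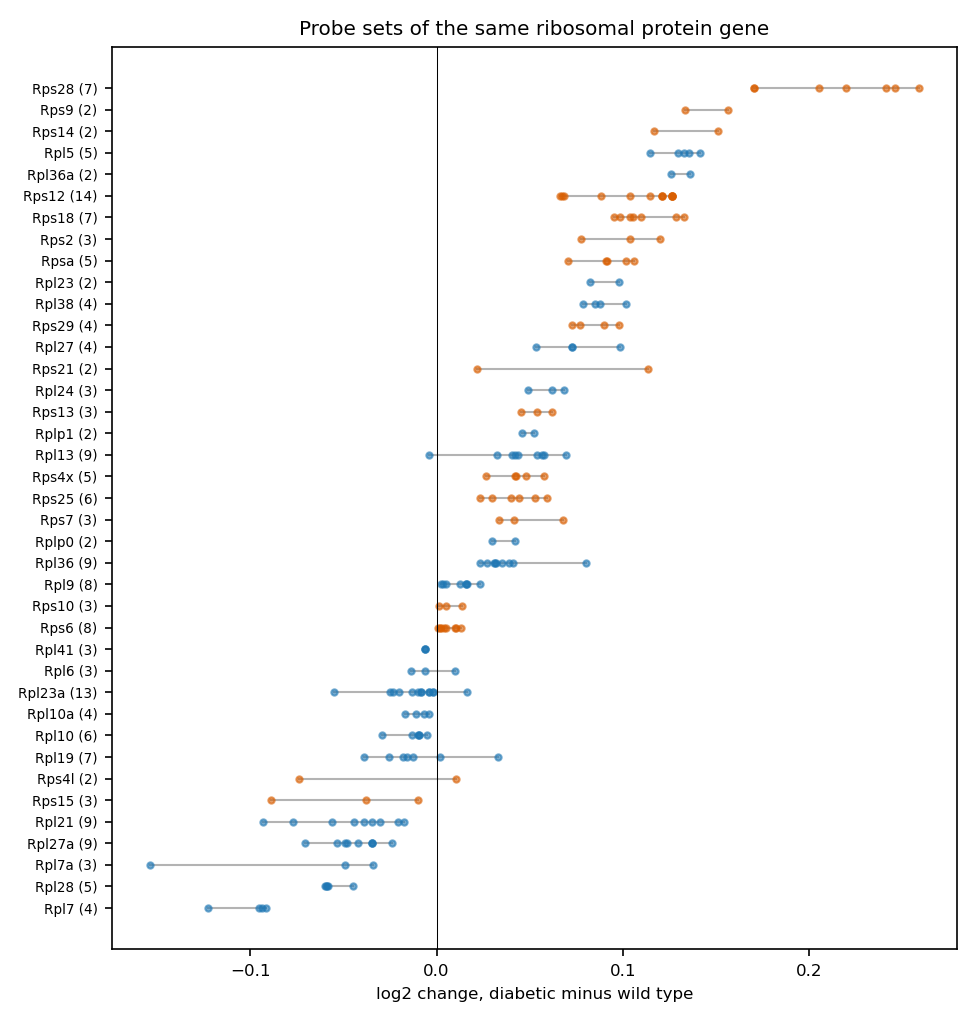
Log2 change, diabetic minus wild type (horizontal axis), of every single-symbol probe set of the 39 ribosomal protein genes with more than 1 set. Points are probe sets (blue large subunit, orange small subunit), the number of sets is in brackets and grey lines join the sets of a gene. All 7 sets of Rps28 lie at 0.17 or above.

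Probe sets with several symbols were kept apart, since none can be named for 1 gene. There were 239 of them with a ribosomal protein symbol, and limma over all 35556 probe sets gave 0 of them an adjusted p under 0.05, where 1 set in all passed, 0.00281%. At an unadjusted p under 0.05, 1 was higher and 32 were lower in diabetic marrow, 33 in all (13.8%) against 5.78% of all probe sets (3.42% higher and 2.37% lower). All 3 diabetic arrays lay below all 3 wild type arrays in 54 sets (22.6%), against 4.49% of all sets, and above in 7 (2.93%), against 6.02%. Of the 54, 35 listed Rpl29 among their symbols, 13 listed Rpl21, 3 listed Rps26 and 3 listed Rpl7a. Grouped by ribosomal protein symbol, the 239 sets formed 36 groups, and only these 4 held a set that was fully lower. The 54 are therefore far from independent and come mostly from sets that list Rpl29. The third diabetic array was the lowest of the 3 diabetic arrays in 187 of the 239 sets, as it was for most of the single-symbol genes.

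Lists of related genes were set beside the ribosomal protein genes. In the limma fit on all 6 arrays without array weights, 0 of their genes had an adjusted p under 0.05. With array weights 2 of 9 Diamond-Blackfan genes (Rps28 and Rpl5), 2 of 39 genes of ribosome assembly and 6 of 76 mitochondrial ribosomal protein genes passed. In that fit 1131 of 11940 genes passed in all. Of the 19 Diamond-Blackfan genes, 9 were tested, with a median change of 0.041, and 8 were above 0. All 9 are among the ribosomal protein genes tested above, so their values repeat a part of those results. Without diabetic replicate 1 the median was 0.014 and 5 of the 9 were above 0, and without diabetic replicate 3 it was 0.10. Only Rpl26, at -0.05 ± 0.06 (SE, n = 3 per group), was below 0 among these 9, and Rps28 was the 1 with an unadjusted p under 0.05. Fau, which encodes a small subunit protein fused to a ubiquitin-like one and lies outside the symbol rule, had a change of -0.03 ± 0.06 (SE, n = 3 per group). The other mRNAs known for a TOP motif, mainly elongation and initiation factors, had a median change of 0.0060 over 18 genes, with 10 above 0, and 0 with an unadjusted p under 0.05. That median was -0.012, -0.021 and 0.043 without diabetic replicate 1, 2 or 3, and -0.0021 without wild type replicate 1. Eef1b2, a subunit of an elongation factor, had log2 signals of 11.67, 11.81 and 11.83 in wild type and 12.02, 11.99 and 11.70 in diabetic marrow, with diabetic array 3 among the wild type arrays.

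Genes of ribosome assembly had a median change of -0.053 over 39 genes, with 14 above 0 and 0 with an unadjusted p under 0.05. Utp15, which acts in the processing of the small subunit's RNA, had log2 signals of 8.33, 8.51 and 8.44 in wild type and 8.25, 8.29 and 8.28 in diabetic marrow, with no overlap and an unadjusted p of 0.0547 in limma. This list moved with 1 array: its mean log2 signal came to 9.44, 9.45 and 9.65 in wild type and 9.47, 9.48 and 9.48 in diabetic marrow, and without wild type replicate 3 its median was 0.017, with 24 above 0. Mitochondrial ribosomal protein genes, which build a separate ribosome, had a median change of -0.038 over 76 genes, with 21 above 0. Of these, 5 had an unadjusted p under 0.05, all lower in diabetic marrow, 6.58% against 7.16% of all genes tested. All 3 diabetic arrays lay below all 3 wild type arrays for 9 of the 76 genes and above them for 1. Over all genes tested 5.38% were below and 6.99% above in this way. Mrps2 had log2 signals of 9.53, 9.57 and 9.64 in wild type and 9.42, 9.36 and 9.39 in diabetic marrow, with an adjusted p of 0.529 in limma. Without wild type replicate 3 the median of the mitochondrial list was -0.0020, with 36 above 0, and without diabetic replicate 3 it was -0.012, with 32 above 0. Without wild type replicate 1 or diabetic replicate 1 it was -0.072 and -0.065.

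Genes that govern translation of ribosomal protein mRNAs had a median change of -0.021 over 13 genes, with 5 above 0. Tsc1, a brake on mTOR, had log2 signals of 9.26, 9.29 and 9.32 in wild type and 9.15, 9.22 and 9.11 in diabetic marrow, with no overlap and an adjusted p of 0.704 in limma. Myc, a transcription factor that drives ribosome production, had a change of -0.11 ± 0.08, and Mtor itself one of -0.10 ± 0.07 (SE, n = 3 per group). Without wild type replicate 3 the median of this list was 0.011, and without any other single array it ran from -0.066 to -0.014. Targets of p53, which free Rpl5 and Rpl11 can activate through Mdm2, had a median change of 0.057 over 7 genes, with 4 above 0 and 0 with an unadjusted p under 0.05. When 1 array was left out their median ran from 0.0060 (without diabetic replicate 2) to 0.058 (without diabetic replicate 3).

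**Figure D5:**
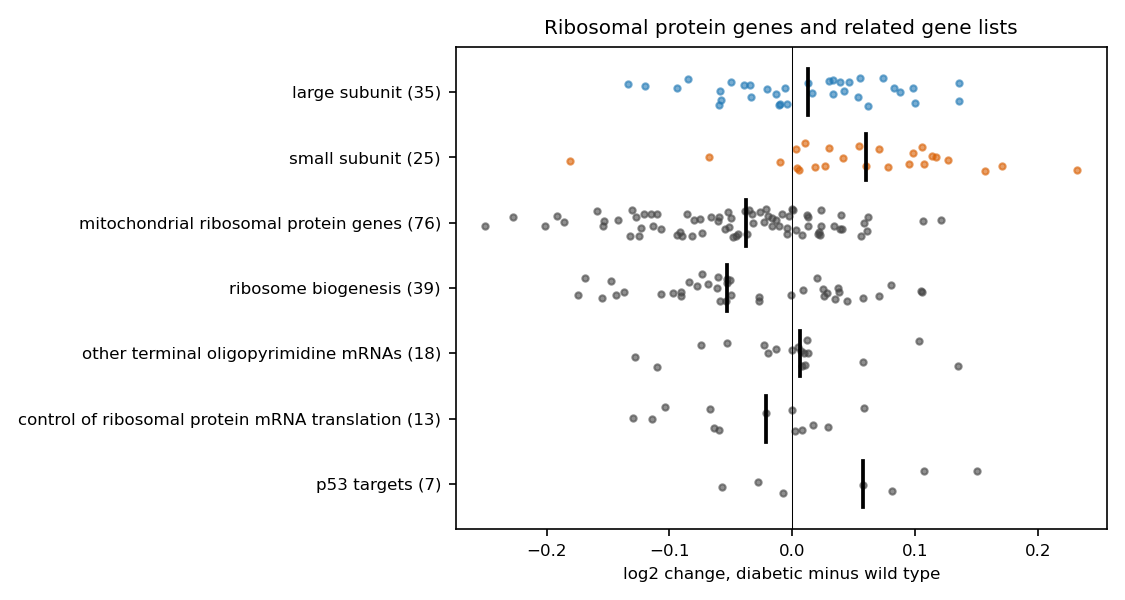
Log2 change, diabetic minus wild type (horizontal axis), of the genes tested in each list, with the number of genes in brackets. Points are genes and black bars the medians, which are 0.012 for the large subunit, 0.060 for the small subunit, -0.038 for mitochondrial ribosomal protein genes and -0.053 for ribosome biogenesis.

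The makeup of the marrow also varied between arrays, and its part in the ribosomal protein values was not tested. Levels here are the mean log2 signal of a marker list on each array. Late neutrophil markers, 11 of 11 tested, had levels of 13.16 to 13.25 in wild type and 13.16 to 13.34 in diabetic arrays, with a median change of 0.042, which ran from -0.00051 (without diabetic replicate 1) to 0.115 (without diabetic replicate 2). Erythroid markers, 12 of 14 tested, had levels of 11.73 to 12.33 and 11.89 to 12.22, with a median change of 0.023. The sign of that median turned with single arrays, from -0.10 without wild type replicate 1 to 0.21 without wild type replicate 3, and it was -0.095 and -0.022 without diabetic replicate 2 or wild type replicate 2. Of the 12 erythroid markers 7 were above 0 and 5 below, and Car1 was the 1 with an unadjusted p under 0.05. Its change was 0.27 ± 0.08 (SE, n = 3 per group), with no overlap and an unadjusted p of 0.0106 in limma (adjusted p = 0.513).

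B cell precursor markers, 9 of 12 tested, had levels of 10.28 to 11.39 in wild type and 10.35 to 10.73 in diabetic arrays, a median change of -0.45, and 9 of 9 were below 0. Wild type array 3, at 10.28, was the lowest of the 6 for this list. Without wild type replicate 1 the median was -0.15, with 2 of 9 above 0. It was -0.30 and -0.71 when wild type replicate 2 or 3 was left out, and -0.25 without diabetic replicate 3. In the limma fit on all 6 arrays 0 of the 9 passed the threshold and 1 had an unadjusted p under 0.05. Without wild type replicate 3, 2 of the 9 passed, where 68 of 11940 genes passed in all. With array weights 6 of the 9 passed, where 1131 passed in all.

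T cell markers, 4 of 7 tested, had levels of 8.60 to 8.95 and 8.47 to 8.98 and did not share a direction. Cd4, the co-receptor of helper T cells, had log2 signals of 9.21, 9.30 and 9.57 in wild type and 8.87, 8.83 and 8.79 in diabetic marrow, with no overlap. Its change was -0.53 ± 0.09 (SE, n = 3 per group). The limma fit gave it an adjusted p of 0.10, the lowest of any gene in these lists, while Cd8a had a change of 0.16 ± 0.17. The median of the 4 was -0.041, and it ran from -0.26 (without diabetic replicate 3) to 0.12 (without wild type replicate 2). Of the 4, 1 passed the threshold without wild type replicate 3 and 1 with array weights, as did 1 erythroid and 1 promyelocyte marker with array weights. Over all genes tested, 68 passed without wild type replicate 3 and 1131 with array weights.

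Promyelocyte markers, 5 of 5 tested, had levels of 12.33 to 12.48 and 12.23 to 12.60, with a median change of -0.033 that was 0.063 without diabetic replicate 2. Cell division genes, 11 of 12 tested, had levels of 11.65 to 11.94 and 11.60 to 11.82, with a median change of -0.054, and diabetic array 3 was the lowest of the 6. That median was 0.041 without wild type replicate 3, 0.015 without diabetic replicate 3, and -0.11 and -0.12 without wild type replicate 1 or diabetic replicate 2. Markers of tissues outside marrow, 3 of 8 above the filter, had levels of 8.02 to 8.25 and 8.09 to 8.14, with a median change of 0.0099 that ran from -0.028 (without diabetic replicate 3) to 0.059 (without wild type replicate 1), and Alb, Snap25, Syt1, Myh7 and Umod were below it.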

How the data were processed

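Per the labels' protocols, RNA was prepared with Trizol and RNeasy columns, then amplified and biotinylated with Affymetrix whole-transcript kits, although the label entry reads Cy3. The authors deposited log2 signals for each probe set. Per the submitters' processing notes, these came from RMA run in Affymetrix Expression Console. For the software version and the genome build, the sources used here give nothing. Of 35556 probe sets, 21789 had 1 symbol, 1621 several and 12146 none in the platform annotation.

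Diabetic and wild type arrays, 3 each, were compared with limma 3.58.1 (lmFit and eBayes, two-sided, no covariate) in R 4.3.3, with version 1.17.8 of data.table. Benjamini-Hochberg adjustment ran over the 11940 genes at or above the level filter, with a threshold of 0.05. Tables were prepared in Python 3.11.15 with pandas 2.3.3, and figures were drawn with matplotlib 3.10.9. The fit was tested on simulated data for this comparison with 11940 genes: it recovered 96% of genes at a log2 change of 1 and of -1, 66% at 0.5 and 72% at -0.5, and called 8 unchanged genes. The simulated noise was drawn independently for each gene and array, without error shared by the genes of an array. No change between 0 and 0.5 in size was simulated, so recovery of changes as small as those of the ribosomal protein genes was not measured. The number of arrays limits the precision.

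The ribosomal protein genes and the other lists were chosen with earlier results of these data known, and the mitochondrial list was added last. Named were Rplp0 and Rps3, the 6 genes with the highest and the 6 with the lowest change, the 4 with the smallest unadjusted p, the 4 with the largest and the 4 with the smallest SD within groups, Rps19 and Rpl5, paralogue pairs, and up to 4 genes of each other list by p. The choice of Rps2, Rplp1, Rps21 and the genes whose probe sets disagreed in sign came after seeing the values. The fit was repeated without a level filter and with one at the 60th percentile, after median centring or a further quantile normalization, with probe sets averaged per gene, with trend and robust settings of eBayes, with array weights, with a replicate block, and without each array in turn.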

Additional observations from a re-analysis of the deposited data

How the results depend on the processing

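Under 14 other settings, 0 ribosomal protein genes passed the threshold in limma except with array weights, where 4 of 60 and 1131 of all genes passed. The weights ran from 0.283 (wild type replicate 3) to 6.78 (wild type replicate 2), and their estimate stopped before its tolerance was reached. The adjusted p in that limma fit was 0.00825 for Rps3a1, 0.0325 for Rps28, 0.0434 for Rps21 and 0.0477 for Rpl5. Rps19bp1 turned to 0.053 there. The count over all genes, 49, was 2 with the replicate block, and from 3 (without diabetic replicate 2) to 68 (without wild type replicate 3) when 1 array was left out. It was 5 without diabetic replicate 1, 12 without diabetic replicate 3 and 13 without wild type replicate 2. At an unadjusted p under 0.05, 0 to 6 of the 60 genes were higher and 0 or 1 lower in the fits without array weights. The share of all genes at this p ran there from 4.1% (without diabetic replicate 1) to 10.4% (without wild type replicate 3). With array weights 17 of the 60 were higher and 1 lower, where 27.3% of all genes had such a p. The median change of the 60 genes stayed above 0, from 0.011 to 0.064, and over the 54 standard ribosomal protein genes, a choice made after seeing the data, it was 0.033. Their median SD ran from 0.052 to 0.078.

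Changes of 5 named genes turned sign when 1 array was left out. Rplp0 ran from -0.00039 to 0.053, Rps19bp1 from -0.12 to 0.0018, Rps19 from -0.046 to 0.081, Rpl10 from -0.042 to 0.016 and Rpl22 from -0.12 to 6.3e-05. Over all settings, 310 values of named genes kept their sign and their side of the threshold, 6 turned sign and 3 newly passed, all 3 with array weights.

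Replicate numbers are not known to pair the arrays: same-numbered deviations correlated by 0.33, -0.044 and -0.054 across genes. With the replicate block the median change was 0.031 and 0 of the 60 genes passed. Limits are 3 arrays per group, RMA, which hides shifts shared by most genes, and probe sets that can read pseudogene copies.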
